A study of Homo sapiens with 15 samples.

Results

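The genes described here encode the enzymes that take superoxide and hydrogen peroxide apart in human cells, namely the superoxide dismutases *SOD1* and *SOD2*, catalase (*CAT*), glutathione peroxidase 1 (*GPX1*) and the peroxiredoxins *PRDX2*, *PRDX3*, *PRDX4*, *PRDX5* and *PRDX6*. They were chosen by name, as the rows of the deposited count table that map to these symbols, and they are 9 of its 58219 genes. RNA was sequenced from BEAS-2B cells, an immortalized line of human bronchial epithelial cells grown in serum-free medium on collagen, after exposure to PM2.5, which is fine particulate matter, here extracted in water from filters of Beijing air. The single-exposure protocol lasted 24 h, with medium alone as the vehicle control and PM2.5 at 1 or 30 µg/cm2. In the repeated protocol, cells plated at a lower density received medium alone or 1 µg/cm2 of PM2.5 every day, with a wash between exposures; the labels give 7 daily exposures and the methods give 6 with collection on day 7. Each of the 5 conditions held 3 libraries, 1 from each of 3 experiments, and the same 3 vehicle controls served both concentrations at 24 h. BEAS-2B is a single immortalized line in submerged culture, so the 3 experiments repeat one cell source.

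Superoxide is a by-product of respiration and of oxidases, and superoxide dismutases convert it to hydrogen peroxide. Catalase splits hydrogen peroxide in peroxisomes, glutathione peroxidases reduce it with glutathione through a selenocysteine, and peroxiredoxins reduce it with a cysteine that is recycled mostly by thioredoxin. In airway epithelium, inhaled metals, quinones and aromatic hydrocarbons are known sources of such oxidants, and the transcription factor NRF2 is known to induce genes for glutathione and thioredoxin supply.

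On GRCh38, the coordinates of the table, *SOD1* (ENSG00000142168.14) lies on the plus strand of chromosome 21 from 31659622 to 31668931. *SOD2* (ENSG00000112096.16) lies on the minus strand of chromosome 6 from 159669057 to 159762529, *CAT* (ENSG00000121691.4) on the plus strand of chromosome 11 from 34438925 to 34472062 and *GPX1* (ENSG00000233276.3) on the minus strand of chromosome 3 from 49357176 to 49358600. *PRDX2* (ENSG00000167815.11) is on the minus strand of chromosome 19 from 12796820 to 12801859 and *PRDX3* (ENSG00000165672.6) on the minus strand of chromosome 10 from 119167703 to 119178833. *PRDX4* (ENSG00000123131.12) is on the plus strand of chromosome X from 23664262 to 23686399, *PRDX5* (ENSG00000126432.13) on the plus strand of chromosome 11 from 64318088 to 64321811 and *PRDX6* (ENSG00000117592.8) on the plus strand of chromosome 1 from 173477266 to 173488807. All values count reads over the exons of these genes. The table's identifier of *SOD2* had no name in the reference used, and the gene was matched by position, since 95.6% of its exon bases lie in the *SOD2* exons of GENCODE v44 on the same strand. *SOD2* shares 1850 exon bases, 9.74% of its own, with *ACAT2* and 437 with *WTAP*, both on the other strand, and the strand used in counting is not given in the sources used here, so its reads are uncertain to that extent. *PRDX2* shares 296 exon bases with an antisense gene that had 0 counts in every library. Pseudogenes named after these genes held few reads, at most 0.405% of the parent's counts, for *PRDX3P1*.

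Promoter sequences were read to show whether the short motifs of NRF2 and of the aryl hydrocarbon receptor, which senses aromatic hydrocarbons, stand near the start sites of these genes. RefSeq windows of 300 bases (GRCh38.p14, 250 bases before to 50 after a start site) were at hand for 7 of the 9 genes, in 11 windows, and *SOD1* and *PRDX6* had none. The antioxidant response element core TGACNNNGC, searched on both strands, was found in 0 of the 11 windows, against 13.3% of all 35116 windows. Among 5 known NRF2 targets with a window, it was found in *GCLM*, which encodes a subunit of the glutathione-making ligase, and in *TXNRD1*, which encodes thioredoxin reductase 1, but not in *NQO1*, *GCLC* or *SRXN1*. The matches are shown because they are the letters that the 11 windows lack, 5′ to 3′ in the direction of the gene, with the match, on either strand, in capitals:
*GCLM*, chr1:93909446-93909474, minus strand: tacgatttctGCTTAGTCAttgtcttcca
*TXNRD1*, chr12:104215670-104215698, plus strand: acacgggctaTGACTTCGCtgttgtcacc
*TXNRD1*, chr12:104215761-104215789, plus strand: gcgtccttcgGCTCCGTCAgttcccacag
*TXNRD1*, chr12:104286920-104286948, plus strand: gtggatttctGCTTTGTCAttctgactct

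The xenobiotic response element core GCGTG was found in 36.5% of all windows. *PRDX2* had 4 matches, the most of these genes, of which 2 overlap each other, while *CAT* and *PRDX3* had none. *GPX1* and *PRDX4* had 1 each, the 4 windows of *SOD2* had from 0 to 2, and the 2 windows of *PRDX5*, which share a match, had 1 and 2. The matches of *PRDX2* and *GPX1* that lie before the start site are shown with the core, or its complement read on the other strand, in capitals:
*PRDX2*, chr19:12801986-12802010, minus strand: gcgcattaccCACGCgggcaggtgc
*PRDX2*, chr19:12801909-12801933, minus strand: gacccggccgCACGCtcccccgcac
*GPX1*, chr3:49358481-49358505, minus strand: ttaggaggagCACGCgtcccgctcg
A match of so few letters is a description of the window and not a binding site, and a window without one says nothing of the factor.

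The libraries held 21460981 to 34724765 counted reads, and each of the 9 genes had between 1016 and 17152 reads. Counting error was therefore small beside the spread between the 24 h experiments for most of these genes. In the closer libraries of the repeated protocol it was a larger part of the spread. Expression is given as CPM, read counts scaled to a common library size with edgeR's TMM factors, always in the order of experiments 1, 2 and 3. The 7 epithelial markers were present in every library, from 29.4 CPM for *EPCAM* at its lowest to 1928 CPM for *KRT7* at its highest, but their levels moved with the conditions. By edgeR, 5 of the 7 fell at 30 µg/cm2 past both thresholds, with log2 fold changes from -2.46 for *KRT5* to -0.70 for *CDH1* and a median of -0.79 over the 7, and 1 of the 7 fell under daily exposure, *KRT5* with -0.93 (3 of 7 with the experiment as a block). From the 24 h to the 7 d controls 3 rose (*CDH1*, *KRT19* and *EPCAM*) and 3 fell (*KRT18*, *KRT7* and *KRT8*), and the part of these shifts in the enzyme results was not tested. Of all genes tested, 8.07% passed both thresholds at 30 µg/cm2, 0.227% under daily exposure and 21.9% between the controls, all without a block. With the block, the share past both thresholds is not given. At any size of change, the block called 12.2% of all genes under daily exposure, against 0.25% without it. The 9 markers of blood, endothelial and fibroblast cells summed to 43.6 to 54 CPM in the 24 h controls and 27.9 to 55.2 CPM at 30 µg/cm2, mostly *COL1A1*, and *LYZ* had 0 counts throughout. Since bulk RNA was measured, fewer cells of a kind and less RNA per cell cannot be told apart.

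Experiment 2 of the 24 h protocol stood apart from experiments 1 and 3, and in most of these genes it did so more with PM2.5 than in the controls. In the 3 libraries of 24 h experiment 2, the 9 genes summed to 2477 CPM in the control, 2975 at 1 µg/cm2 and 2790 at 30 µg/cm2, whereas the other 24 h libraries lay between 1588 and 2134. The widest gap was in *PRDX5*, which in experiment 2 was above the mean of experiments 1 and 3 by 0.98, 1.57 and 1.29 on the log2 scale in the control, at 1 and at 30 µg/cm2. Next came *GPX1* with 0.29, 1.23 and 0.96, *PRDX6* with 0.53, 0.79 and 0.77, and *PRDX2* with 0.40, 0.79 and 0.87. *PRDX3*, *CAT* and *SOD2* departed less evenly, with values between -0.26 and 0.76. Over all genes tested the median of this gap was -0.02, -0.02 and 0.01, which the scaling itself holds near 0, and 18.8% to 25.6% of genes exceeded 0.5. Of the 9 genes, only *PRDX5* and *PRDX6* exceeded 0.5 in the controls. All but *SOD2*, *CAT* and *PRDX3* did so at 1 µg/cm2, and all but *CAT* and *PRDX3* at 30 µg/cm2. Experiment 2 was the highest library for 42% to 45.6% of all genes. The same experiment supplied a library to each 24 h group, and therefore every 24 h comparison is also given with the experiment as a block, from a fit that compares treated and control cells within their own experiment, and without the 3 libraries of experiment 2. In the repeated protocol the 9 genes summed to 1430 to 1539 CPM in all 6 libraries.

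**Figure D1:**
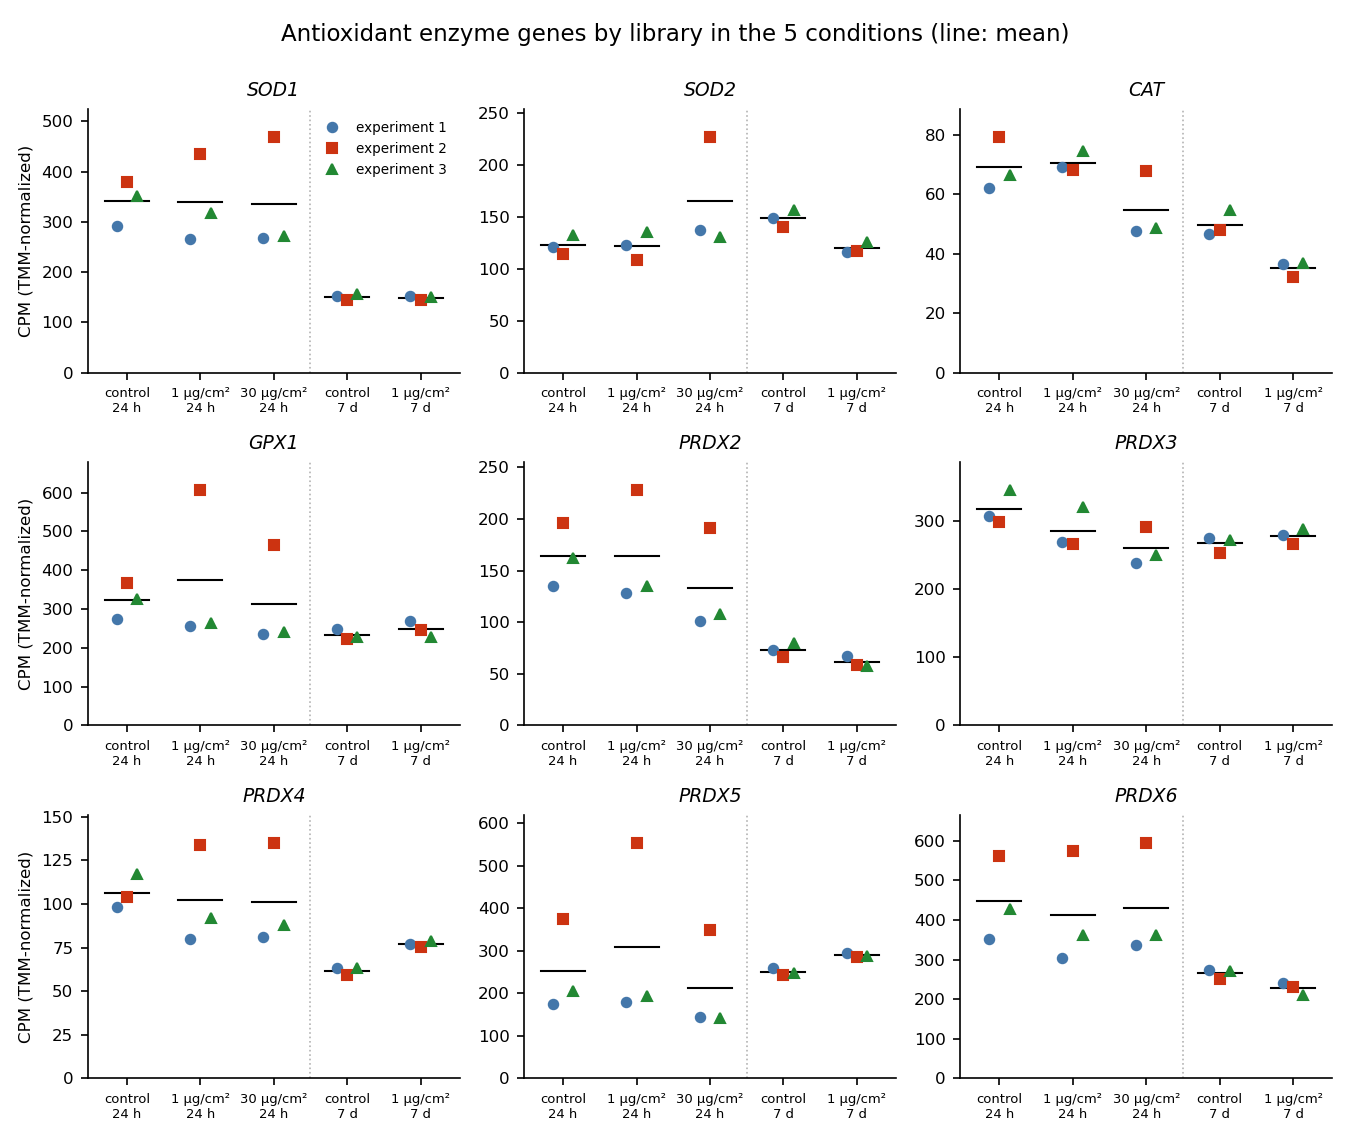
Expression in CPM (vertical axes, from 0) of the 9 genes in each of the 15 libraries, by condition (horizontal axes), with a symbol for each experiment and a line at the mean of 3. At 24 h, experiment 2 is the highest library of *PRDX5*, *PRDX6*, *GPX1*, *PRDX2* and *SOD1* in all 3 conditions, and at 7 d the libraries lie close together.

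Levels of different genes were compared per kilobase of exon. In the 24 h controls the order was *PRDX5* with 282 ± 120 CPM per kb (SD, n = 3), *GPX1* with 226 ± 32.7, *PRDX6* with 189 ± 45 and *SOD1* with 169 ± 22.5, and neighbours among these 4 overlapped in their libraries. *PRDX3* followed at 92.9 ± 7.31 CPM per kb and *PRDX2* at 78.5 ± 14.8, which overlapped each other but not *SOD1*. *PRDX4* at 55.9 ± 5, *CAT* at 20.7 ± 2.66 and *SOD2* at 6.45 ± 0.519 CPM per kb each stood below the gene before it in every library. The last value depends on the annotated length, since the exons counted for *SOD2* span 18985 bases and those of the other genes 893 to 3417. The repeated protocol kept most of this order in its controls, from *PRDX5* at 280 ± 9.73 CPM per kb down to *SOD2* at 7.83 ± 0.446, but there *PRDX3* at 78.2 ± 3.38 and *SOD1* at 74.8 ± 3.31 overlapped. After daily PM2.5, *PRDX4* at 40.5 ± 0.973 CPM per kb stood above *PRDX2* at 29.2 ± 2.34 in every library, whereas in the controls they overlapped at 32.5 ± 1.28 and 34.9 ± 3.08.

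The first comparison asks what a high concentration of PM2.5 did to these genes within 24 h. Differences were small throughout, and the log2 fold changes at 30 µg/cm2 ran from -0.34 for *CAT* to 0.43 for *SOD2*, with 8 of the 9 below 0, a median of -0.07 and a median of 0.03 over all genes tested. In the edgeR quasi-likelihood fit of all 15 libraries with Benjamini-Hochberg adjustment, 0 of the 9 passed both thresholds, which asked for an adjusted p under 0.05 and a log2 change of 0.6 or more either way, and 8.07% of the 17599 genes tested passed them. At an adjusted p under 0.05 and any size of change, 0 of the 9 passed against 10.1% of all genes. The unadjusted p was under 0.05 for *SOD2*, *CAT* and *PRDX3*, 3 of 9 against 23.6% of all genes, and DESeq2 called *PRDX3* alone at an adjusted p under 0.05, 1 of 9 against 14.7%. With the experiment as a block, *CAT*, *PRDX2* and *PRDX3* fell, 3 of 9 against 29.6% of all genes, a similar share. Without experiment 2, which leaves only experiments 1 and 3 in each group, 7 of the 9 fell, all but *SOD2* and *PRDX6*. In that fit 38.3% of all genes were called in either direction. Without the experiment 2 library at 30 µg/cm2 alone, *CAT* and *PRDX3* passed at any size, 2 of 9 against 18.7% of all genes. Treated and control libraries did not overlap for *PRDX3* only, 1 of 9 against 22.8% of all genes.

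At 1 µg/cm2 for 24 h, compared with the same controls, none of these genes was called. The log2 fold changes ran from -0.15 for *PRDX3* to 0.30 for *PRDX5*, with 6 of the 9 below 0 (3 of 9 with upper quartile scaling or a filter at 1 CPM), a median of -0.01 and a median of 0.01 over all genes. After Benjamini-Hochberg adjustment edgeR called 0 of 9 with both thresholds or at any size of change, and 0.0625% of all genes by either rule. The count was also 0 of 9 at an unadjusted p under 0.05 (3.03% of all genes), with DESeq2 (0.244%), with the experiment as a block (0.472%) and without experiment 2 (5.45%), and libraries overlapped for all 9 genes (4.44% of all genes did not). The 95% intervals, from -0.65 to 1.22 over the 9 genes without the block and from -0.39 to 0.42 with it, say how large a change could have gone unseen.

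Daily exposure to 1 µg/cm2 was compared with its own controls. The log2 fold changes ran from -0.50 for *CAT* to 0.32 for *PRDX4*, with 5 of 9 below 0, a median of -0.02 and a median of 0.01 over all genes. In the edgeR quasi-likelihood fit with Benjamini-Hochberg adjustment, 0 of 9 passed both thresholds (0.227% of all genes) and 0 of 9 passed at any size (0.25%). *CAT* was the 1 gene of 9 with an unadjusted p under 0.05 (11.9% of all genes), the 1 that DESeq2 called (2.89%) and the 1 that fell with the experiment as a block (12.2%). The 6 libraries of this protocol were much closer together than those at 24 h once 24 h experiment 2 is counted. Between libraries of a group, over the genes of the table, the chi-square per degree of freedom was 4.32 to 25.5 in this protocol. At 24 h it was 76.6 to 181 in pairs with experiment 2 and 4.44 to 18.1 between experiments 1 and 3. The shared estimate of spread therefore widens the errors of this protocol. In a fit of these 6 libraries alone, 6 of 9 passed at any size (28.2% of all genes), with *CAT*, *SOD2*, *PRDX2* and *PRDX6* lower and *PRDX4* and *PRDX5* higher. Treated and control libraries did not overlap for 5 of 9, *SOD2*, *CAT* and *PRDX6*, which were lower, and *PRDX4* and *PRDX5*, which were higher, and 42.9% of all genes did not overlap.

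**Figure D2:**
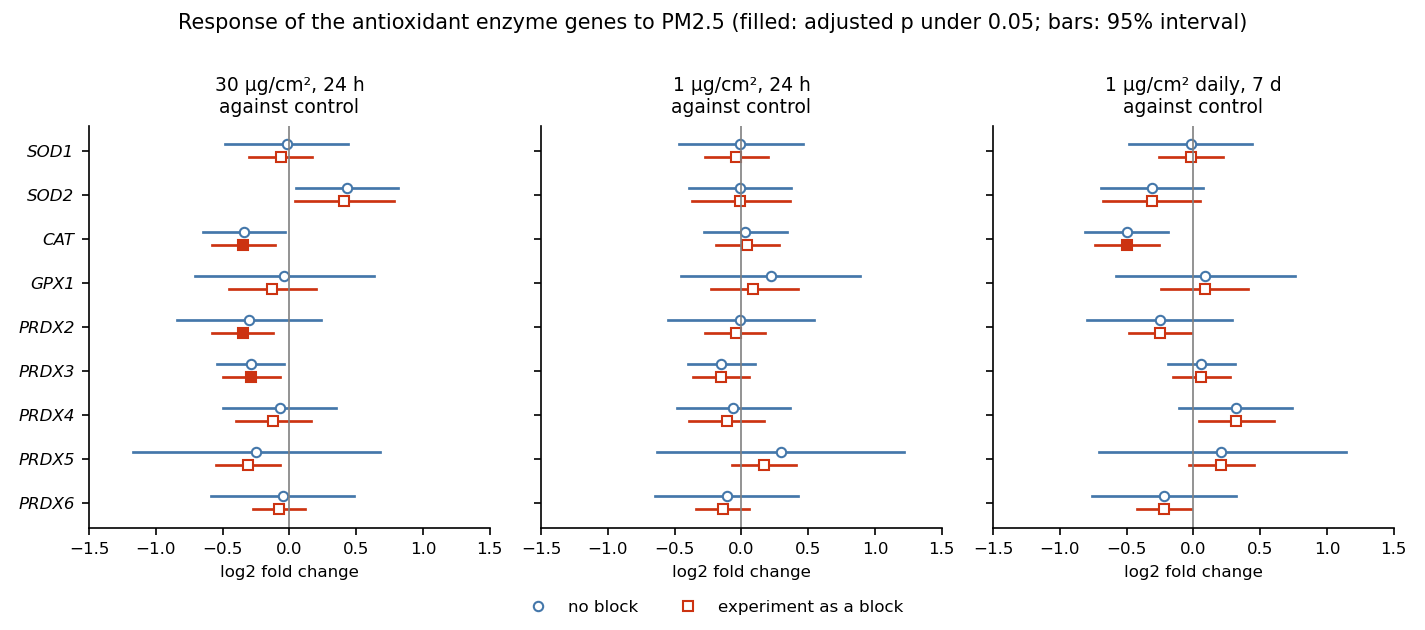
Log2 fold change (horizontal axes) of each gene against its control with a 95% interval, for 30 and 1 µg/cm2 at 24 h and 1 µg/cm2 daily at 7 d, without a block (circles) and with the experiment as a block (squares); filled symbols have an adjusted p under 0.05. Filled squares stand at *CAT*, *PRDX2* and *PRDX3* at 30 µg/cm2 and at *CAT* at 7 d, and no circle is filled.

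*SOD1*, the copper and zinc dismutase of the cytosol, was at 291, 380 and 352 CPM in the 24 h controls, 265, 436 and 318 CPM at 1 µg/cm2 and 267, 469 and 272 CPM at 30 µg/cm2. Experiment 2 was the highest library of each group, and the groups overlapped. Within the experiments, the log2 ratio at 30 µg/cm2 was -0.13, 0.30 and -0.37. The fitted log2 fold change was -0.02 (SE 0.215, 95% interval -0.48 to 0.44, edgeR adjusted p = 0.972) and with the block -0.06 (interval -0.30 to 0.17, edgeR adjusted p = 0.697). Without experiment 2 it was -0.27 (edgeR adjusted p = 0.0488), so for *SOD1* the call rested on whether that experiment was used. With 1 µg/cm2 it was -0.01 (SE 0.215, interval -0.47 to 0.46). In the repeated protocol, *SOD1* had 153, 144 and 157 CPM in the controls and 153, 144 and 150 CPM after daily PM2.5, a log2 fold change of -0.02 whose interval with the block was -0.26 to 0.22.

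*SOD2*, the manganese dismutase of mitochondria and a known target of NF-kappaB, was at 121, 114 and 133 CPM in the 24 h controls and 123, 108 and 135 CPM at 1 µg/cm2. At 30 µg/cm2 it had 137, 227 and 131 CPM. One library carried most of the difference, since the ratio within experiment 2 was 1.00 on the log2 scale and those within experiments 1 and 3 were 0.18 and -0.02. The fitted log2 fold change at 30 µg/cm2 was 0.43 (SE 0.177, 95% interval 0.05 to 0.81, edgeR adjusted p = 0.155), with the block 0.41 (edgeR adjusted p = 0.0873) and without experiment 2 only 0.06 (interval -0.12 to 0.25, edgeR adjusted p = 0.609). With 1 µg/cm2 it was -0.01 (SE 0.177). In the repeated protocol the direction was the other way, with 149, 140 and 157 CPM in the controls and 116, 117 and 126 CPM after daily PM2.5. All 3 treated libraries lay below all 3 controls, with ratios of -0.35, -0.26 and -0.32 on the log2 scale, and the fitted log2 fold change was -0.31 (SE 0.177, interval -0.69 to 0.07, edgeR adjusted p = 0.52) and with the block also -0.31 (edgeR adjusted p = 0.236).

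*CAT*, which encodes catalase, was lower in treated than in control cells of every experiment at 30 µg/cm2 and in the repeated protocol. At 24 h the controls had 62.1, 79.2 and 66.4 CPM, the cells at 1 µg/cm2 69.1, 68.2 and 74.4 CPM and those at 30 µg/cm2 47.6, 67.7 and 48.7 CPM. Only the experiment 2 library at 30 µg/cm2 reached the range of the controls. At 30 µg/cm2 the log2 fold change was -0.34 (SE 0.145, 95% interval -0.65 to -0.03, edgeR adjusted p = 0.169) and with the block -0.35 (SE 0.109, interval -0.58 to -0.11, edgeR adjusted p = 0.0296), which is a level 0.786 times that of the controls. Without experiment 2 it was -0.43 (edgeR adjusted p = 0.00225). With 1 µg/cm2 it was 0.03 (SE 0.145, interval -0.28 to 0.34). In the repeated protocol *CAT* had 46.7, 48.1 and 54.5 CPM in the controls and 36.6, 32.1 and 36.9 CPM after daily PM2.5. Every treated library lay below every control, and the ratios within experiments were -0.35, -0.58 and -0.56 on the log2 scale. This was the widest change of the 9 genes under daily exposure, with a log2 fold change of -0.50 (SE 0.146, interval -0.81 to -0.19, edgeR adjusted p = 0.176), a DESeq2 adjusted p of 0.0358, and -0.50 with the block (SE 0.109, interval -0.74 to -0.26, edgeR adjusted p = 0.0149), 0.707 times the level of the controls.

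*GPX1*, the selenium-containing peroxidase of cytosol and mitochondria, had 275, 368 and 325 CPM in the 24 h controls, 256, 607 and 263 CPM at 1 µg/cm2 and 235, 465 and 241 CPM at 30 µg/cm2. Experiment 2 was again highest in each group, and with PM2.5 its gap to the other experiments was wider than in the controls. The log2 fold change at 30 µg/cm2 was -0.04 (SE 0.312, 95% interval -0.71 to 0.63, edgeR adjusted p = 0.962), -0.13 with the block (interval -0.45 to 0.20, edgeR adjusted p = 0.561) and -0.35 without experiment 2 (edgeR adjusted p = 0.0101). At 1 µg/cm2 it was 0.22 (SE 0.312), the ratio within experiment 2 being 0.72 and those within experiments 1 and 3 -0.10 and -0.30, and without experiment 2 it was -0.20 (edgeR adjusted p = 0.27). The repeated protocol gave 248, 224 and 229 CPM in the controls and 270, 247 and 228 CPM after daily PM2.5. Its log2 fold change was 0.09 (SE 0.312, interval with the block -0.24 to 0.41).

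Among the typical 2-Cys peroxiredoxins, *PRDX2*, the cytosolic enzyme, had 135, 196 and 162 CPM in the 24 h controls, 128, 228 and 135 CPM at 1 µg/cm2 and 101, 191 and 108 CPM at 30 µg/cm2. In each group experiment 2 was far above the others, yet within every experiment *PRDX2* was lower at 30 µg/cm2, with log2 ratios of -0.41, -0.04 and -0.59. The log2 fold change was -0.30 (SE 0.252, 95% interval -0.84 to 0.24, edgeR adjusted p = 0.531) and with the block -0.35 (SE 0.106, interval -0.58 to -0.12, edgeR adjusted p = 0.0263), and without experiment 2 it was -0.52 (edgeR adjusted p = 0.00109). Blocking thus left the estimate near its place and lowered the SE. With 1 µg/cm2 it was -0.01 (SE 0.252). Under daily exposure *PRDX2* had 66.9, 58.8 and 58 CPM against 72.7, 66.6 and 79.5 CPM in the controls, a log2 fold change of -0.25 (SE 0.253, edgeR adjusted p = 0.746) and with the block -0.25 (interval -0.48 to -0.02, edgeR adjusted p = 0.136). The libraries of both groups overlapped there by 1 treated library.

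*PRDX3*, the peroxiredoxin of mitochondria, was the gene whose 24 h libraries at 30 µg/cm2 all lay below the controls. The controls had 307, 299 and 346 CPM, the cells at 1 µg/cm2 270, 266 and 321 CPM and those at 30 µg/cm2 238, 292 and 250 CPM. At 30 µg/cm2 the log2 fold change was -0.29 (SE 0.117, 95% interval -0.54 to -0.04, edgeR adjusted p = 0.146), the DESeq2 adjusted p was 0.0483, and with the block it was -0.29 (SE 0.0975, interval -0.50 to -0.07, edgeR adjusted p = 0.043). The ratio within experiment 2 was -0.04 against -0.37 and -0.47 in the other two, and without experiment 2 the log2 fold change was -0.43 (edgeR adjusted p = 0.00182). The estimate with 1 µg/cm2 was -0.15 (SE 0.116, interval -0.40 to 0.10). Under daily exposure *PRDX3* had 280, 267 and 289 CPM against 275, 254 and 273 CPM, a log2 fold change of 0.06 (SE 0.116, interval -0.19 to 0.31).

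*PRDX4*, the peroxiredoxin of the endoplasmic reticulum, had 98.4, 104 and 117 CPM in the 24 h controls, 80.1, 134 and 92.1 CPM at 1 µg/cm2 and 80.8, 135 and 87.8 CPM at 30 µg/cm2. Both concentrations gave nearly the same 3 values, with experiment 2 above its control and experiments 1 and 3 below theirs. The log2 fold changes were -0.06 (SE 0.197) at 1 µg/cm2 and -0.07 (SE 0.197, 95% interval -0.50 to 0.35, edgeR adjusted p = 0.874) at 30 µg/cm2. Without experiment 2 they were -0.31 (edgeR adjusted p = 0.0721) and -0.37 (edgeR adjusted p = 0.00636). Under daily exposure all 3 treated libraries, with 76.9, 75.4 and 79 CPM, lay above the controls with 63.2, 59 and 63.1 CPM. The log2 fold change was 0.32 (SE 0.198, interval -0.11 to 0.74, edgeR adjusted p = 0.567) and with the block 0.32 (SE 0.129, interval 0.04 to 0.60, edgeR adjusted p = 0.121).

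*PRDX5*, an atypical 2-Cys peroxiredoxin found in mitochondria, peroxisomes and cytosol, varied most between the 24 h experiments. It had 176, 375 and 205 CPM in the controls, 179, 554 and 194 CPM at 1 µg/cm2 and 145, 349 and 141 CPM at 30 µg/cm2. Experiment 2 was the highest library of each group, and in experiments 1 and 3 the libraries at 30 µg/cm2 lay below all the others. The log2 fold change at 30 µg/cm2 was -0.25 (SE 0.43, 95% interval -1.17 to 0.68, edgeR adjusted p = 0.788), whereas with the block it was -0.31 (SE 0.112, interval -0.55 to -0.07, edgeR adjusted p = 0.0516) and without experiment 2 -0.43 (edgeR adjusted p = 0.000978). At 1 µg/cm2 it was 0.30 (SE 0.43) and with the block 0.17 (interval -0.07 to 0.41, edgeR adjusted p = 0.741). Under daily exposure *PRDX5* had 296, 285 and 288 CPM, above the 260, 243 and 247 CPM of the controls in every library. Its ratios of 0.19, 0.23 and 0.22 on the log2 scale were nearly equal, and the log2 fold change was 0.21 (SE 0.43, edgeR adjusted p = 0.887) and with the block 0.21 (SE 0.111, interval -0.03 to 0.45, edgeR adjusted p = 0.222).

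*PRDX6*, the 1-Cys peroxiredoxin, which also has phospholipase activity, had 352, 562 and 428 CPM in the 24 h controls, 304, 575 and 361 CPM at 1 µg/cm2 and 337, 595 and 362 CPM at 30 µg/cm2. The 3 groups repeated one another experiment by experiment. At 30 µg/cm2 the log2 fold change was -0.05 (SE 0.25, 95% interval -0.59 to 0.48, edgeR adjusted p = 0.935) and with the block -0.08 (interval -0.27 to 0.12), and at 1 µg/cm2 -0.11 (SE 0.25) and -0.14 (interval -0.34 to 0.06). Under daily exposure *PRDX6* had 241, 232 and 210 CPM, below the 273, 252 and 271 CPM of the controls in every library. The log2 fold change was -0.22 (SE 0.251, edgeR adjusted p = 0.785) and with the block -0.22 (SE 0.0916, interval -0.42 to -0.02, edgeR adjusted p = 0.128).

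**Figure D3:**
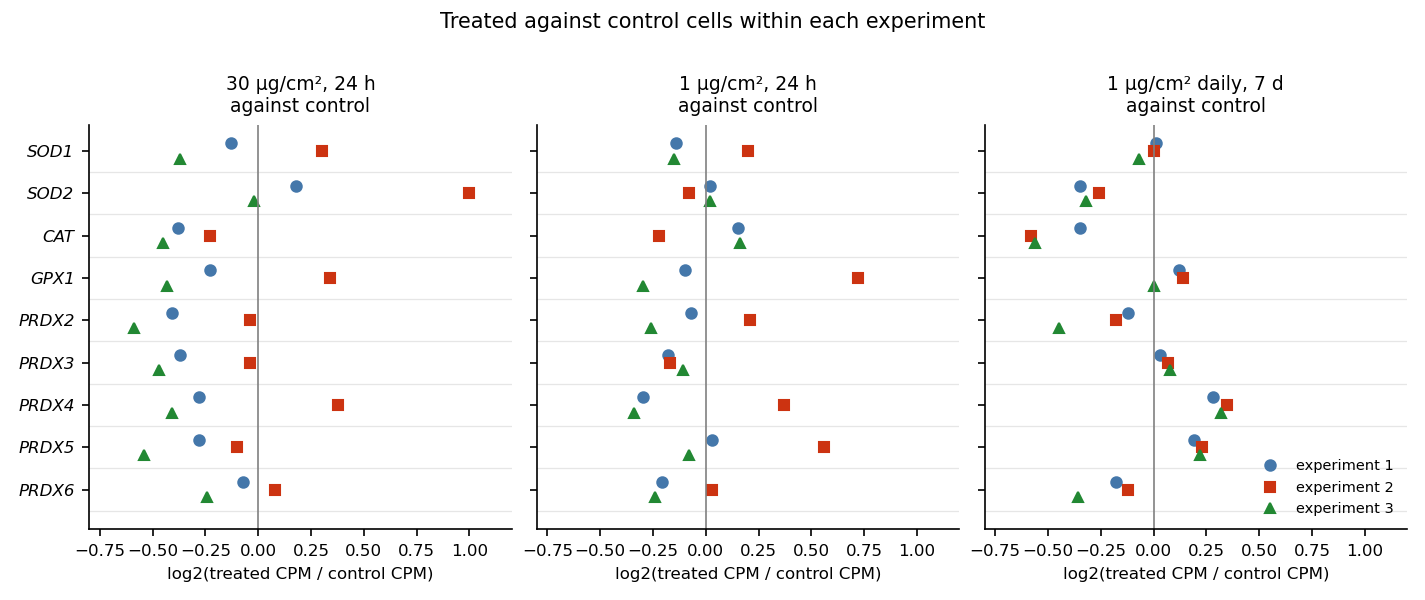
Log2 ratio of treated to control CPM within each of the 3 experiments (horizontal axes) for each gene, for 30 and 1 µg/cm2 at 24 h and 1 µg/cm2 daily at 7 d. *CAT* lies below 0 in all 3 experiments at 30 µg/cm2 and at 7 d, *SOD2* reaches 1.00 in experiment 2 at 30 µg/cm2, and *PRDX4* and *PRDX5* lie above 0 in all 3 experiments at 7 d.

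The difference between the concentrations was tested directly. Between 30 and 1 µg/cm2, edgeR called 0 of the 9 genes with both thresholds (7.84% of all genes) and 0 at any size (10.1%) after Benjamini-Hochberg adjustment. The unadjusted p was under 0.05 for *SOD2* and *CAT*, 2 of 9 against 24.5% of all genes, and DESeq2 called 0 of 9 (15% of all genes). With the experiment as a block, 3 of 9 were lower at 30 µg/cm2 (31.4% of all genes), *CAT* by -0.39 (SE 0.109, edgeR adjusted p = 0.0165), *PRDX5* by -0.48 (SE 0.112, edgeR adjusted p = 0.00582) and *PRDX2* by -0.30 (SE 0.106, edgeR adjusted p = 0.045) on the log2 scale. Without experiment 2, 4 of 9 were lower (34.6% of all genes), these 3 and *PRDX3*, and without the experiment 2 library at 30 µg/cm2 alone *CAT* passed at any size, 1 of 9 against 18.9% of all genes. The libraries of both concentrations did not overlap for *CAT*, 1 of 9 against 21.6% of all genes.

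Whether daily exposure and a single exposure to 1 µg/cm2 differed in their effect was tested as the difference of both responses. By edgeR, after Benjamini-Hochberg adjustment, 0 of the 9 genes passed with both thresholds or at any size, as did 0% of all genes. The unadjusted p was under 0.05 for *CAT* alone, 1 of 9 against 7.07% of all genes, DESeq2 called 0 of 9 (0.534% of all genes) and the fit with the block 0 of 9 (1.18%). For *CAT* the difference of log2 responses was -0.53 (SE 0.206, 95% interval -0.97 to -0.09, edgeR adjusted p = 0.631) and with the block -0.54 (SE 0.154, interval -0.88 to -0.21, edgeR adjusted p = 0.0898). Without 24 h experiment 2, 3 of 9 passed at any size (20.4% of all genes), *CAT* at -0.67 (edgeR adjusted p = 0.00188), *SOD2* at -0.34 (edgeR adjusted p = 0.0402) and *PRDX4* at 0.63 (edgeR adjusted p = 0.00257).

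The clearest differences among these genes were between the controls of both protocols, which received no particles. *SOD1* fell from 341 ± 45.3 CPM (SD, n = 3) at 24 h to 151 ± 6.68 CPM in the repeated protocol, or by -1.18 on the log2 scale (SE 0.218, 95% interval -1.64 to -0.71, edgeR adjusted p = 0.00141). *PRDX2* fell from 164 ± 30.9 to 73 ± 6.45 CPM (SD, n = 3), by -1.17 on the log2 scale (SE 0.256, edgeR adjusted p = 0.00397). Their levels were 0.443 and 0.444 times those of the 24 h controls. *PRDX4* fell from 106 ± 9.52 to 61.8 ± 2.44 CPM (SD, n = 3), or by -0.78 (SE 0.199, edgeR adjusted p = 0.00951), and *PRDX6* from 447 ± 106 to 265 ± 11.6 CPM (SD, n = 3), or by -0.75 (SE 0.252, edgeR adjusted p = 0.0377).

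These 4 of the 9 genes passed both thresholds in that comparison, against 21.9% of all genes. *CAT*, at 69.2 ± 8.89 and 49.8 ± 4.14 CPM (SD, n = 3), fell by 0.48 on the log2 scale (SE 0.146, edgeR adjusted p = 0.0253), which made 5 of 9 at any size against 28.9% of all genes. The other 4 did not pass in edgeR, with log2 fold changes of 0.28 for *SOD2* (SE 0.177, interval -0.10 to 0.66), -0.25 for *PRDX3* (SE 0.117, interval -0.50 to 0.00) and -0.01 for *PRDX5* (SE 0.43, interval -0.93 to 0.91). *GPX1* was at -0.47 (SE 0.313, interval -1.14 to 0.21). DESeq2 also called *PRDX3*, at -0.27 (DESeq2 adjusted p = 0.0443), which made 6 of 9 against 33.7% of all genes. Libraries of both protocols did not overlap for 8 of 9 genes, all but *PRDX5*, and 52.3% of all genes did not overlap. Without 24 h experiment 2 all 9 passed at any size (53.9% of all genes), and then *PRDX5* was higher in the repeated protocol by 0.38 (SE 0.079, edgeR adjusted p = 0.000718) and *SOD2* by 0.21 (SE 0.0793, edgeR adjusted p = 0.0332). *PRDX6*, at -0.57 without experiment 2, then missed the threshold of size. Leaving out the control of experiment 2 at 24 h, or the control of experiment 1 or of experiment 2 in the repeated protocol, left 3 genes called at any size, *SOD1*, *PRDX2* and *PRDX4*, against 28.1%, 20.1% and 19% of all genes in those fits. *PRDX6* lost its call without any single control library other than that of 24 h experiment 1. The protocols differ in plating density, days in culture, washes and experiments, which cannot be told apart.

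**Figure D4:**
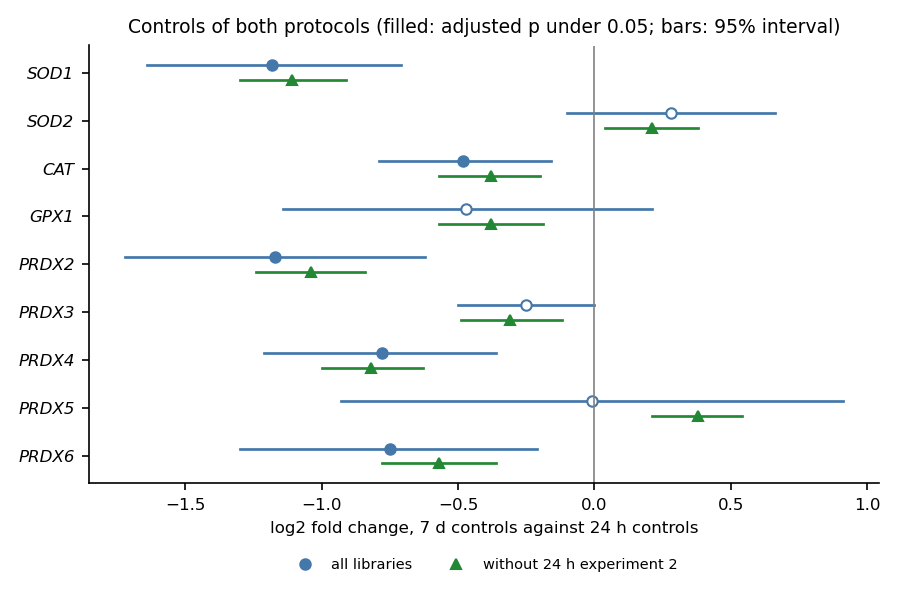
Log2 fold change (horizontal axis) of each gene between the controls of the repeated and the 24 h protocol with a 95% interval, with all libraries (circles) and without 24 h experiment 2 (triangles); filled symbols have an adjusted p under 0.05. *SOD1* at -1.18 and *PRDX2* at -1.17 lie farthest from 0, and *PRDX5* moves from -0.01 to 0.38 when experiment 2 is left out.

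Other genes of oxidant defence were measured beside them. Their counts are to be read beside the shares of all genes tested that passed both thresholds. These were 8.07% at 30 µg/cm2 and 21.9% between the controls, both without a block. For the fit with the experiment as a block, the share past both thresholds is not given. At any size, that fit called 29.6% of all genes at 30 µg/cm2, against 10.1% without the block. For 1 µg/cm2 at 24 h it called 0.472% against 0.0625%. Of 8 NRF2 targets, all 8 passed both thresholds upward at 30 µg/cm2, with a median log2 fold change of 2.35. *HMOX1*, which encodes heme oxygenase 1, rose by 3.25 (SE 0.272, edgeR adjusted p = 1.49e-05), *SLC7A11*, the cystine transporter, by 2.93 (SE 0.507, edgeR adjusted p = 0.00229), and *SRXN1*, the sulfiredoxin that repairs overoxidized 2-Cys peroxiredoxins, by 2.38 (SE 0.61, edgeR adjusted p = 0.0233). Levels of *SRXN1* were low, at 1.17 ± 0.947 CPM (SD, n = 3) in the 24 h controls and 6.31 ± 3.18 CPM at 30 µg/cm2, with 7 reads in its lowest library. *TXNRD1* rose by 2.37 (SE 0.348, edgeR adjusted p = 0.000701) and *GCLM* by 1.44 (SE 0.302, edgeR adjusted p = 0.00787), and these carry the antioxidant response element cores printed above, while *GCLC*, with none in its window, rose by 2.33 (SE 0.304, edgeR adjusted p = 0.000312); *GCLM* and *GCLC* are named for their windows, chosen after their values were seen. *NQO1*, a quinone reductase and the most abundant of the 8 per length, rose by 1.95 (SE 0.171, edgeR adjusted p = 2.08e-05). At 1 µg/cm2 for 24 h and under daily exposure, 0 of these 8 were called by the edgeR test, with medians of 0.49 and 0.08. With the experiment as a block *NQO1* rose by 0.92 at 1 µg/cm2 for 24 h (SE 0.146, edgeR adjusted p = 0.0132).

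Partners that load metal into, reduce or repair the enzymes numbered 16, all tested. At 30 µg/cm2, 3 of the 16 passed both thresholds and rose, *SRXN1*, *TXNRD1* and the glutathione reductase *GSR* with 0.68 (SE 0.113, edgeR adjusted p = 0.00178), and 13 did not pass. Thioredoxin (*TXN*), the most abundant of them per length at 457 CPM per kb over all libraries, had a log2 fold change of 0.63 (SE 0.218, edgeR adjusted p = 0.0878). With the experiment as a block 4 of the 16 passed both thresholds, the addition being *SESN2*, a sestrin, with 1.34 (SE 0.291, edgeR adjusted p = 0.00414), and *TXN* passed at any size with 0.57 (edgeR adjusted p = 0.0303). The median over the 16 was 0.17. Between the controls of both protocols 3 of the 16 passed both thresholds, all lower, against 21.9% of all genes. *GLRX* fell by 1.38, *TXN* by 1.02 and *TXNRD2* by 0.69 on the log2 scale, with edgeR adjusted p-values of 0.000119, 0.00355 and 0.0339.

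Of 9 relatives outside the chosen genes, 6 were tested, and *SOD3*, *GPX5* and *GPX6* did not pass the filter on low counts. Without a block, none of the 6 passed the edgeR test at 30 µg/cm2, where the median log2 fold change was -0.08, or in the other particle comparisons. With the experiment as a block, 0 of the 6 passed both thresholds at 30 µg/cm2. At any size, *GPX3* fell there by 0.45 (edgeR adjusted p = 0.0109) and *GPX8* by 0.28 (edgeR adjusted p = 0.0182), and the other relatives were not called. Both were also lower than at 1 µg/cm2 (edgeR adjusted p = 0.0113 and 0.0118). That fit called 29.6% of all genes at 30 µg/cm2 at any size. *PRDX1*, the cytosolic peroxiredoxin closest in role to *PRDX2* and the most abundant relative at 197 CPM per kb over all libraries, was at -0.01 (SE 0.166, edgeR adjusted p = 0.992) at 30 µg/cm2. From the 24 h to the 7 d controls it fell from 414 ± 46.7 to 104 ± 4.95 CPM (SD, n = 3) (edgeR adjusted p = 8.06e-06), together with *GPX3*, the secreted glutathione peroxidase, by 1.19 (SE 0.191, edgeR adjusted p = 0.000537) and *GPX8* by 0.79 (SE 0.256, edgeR adjusted p = 0.0333). For the selenium enzyme *GPX1*, 5 genes of selenoprotein synthesis were tested, and 1 of 5 passed both thresholds at 30 µg/cm2, *SEPHS2*, which makes selenophosphate, with 0.64 (SE 0.119, edgeR adjusted p = 0.00392). *SECISBP2*, whose product binds selenoprotein mRNAs, passed at any size with 0.59 (SE 0.11, edgeR adjusted p = 0.00361), just under the threshold of size, and passed both thresholds against 1 µg/cm2 with 0.68 (edgeR adjusted p = 0.00178).

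Genes whose products make superoxide or hydrogen peroxide numbered 27, of which 19 were tested. At 30 µg/cm2, *SMOX*, the spermine oxidase, rose by 1.19 (SE 0.199, edgeR adjusted p = 0.00178) and *ERO1B*, an oxidase of the endoplasmic reticulum, by 0.86 (SE 0.185, edgeR adjusted p = 0.00897), while *MAOA*, the monoamine oxidase of mitochondria, fell by 1.49 (SE 0.201, edgeR adjusted p = 0.000378). The other 16 did not pass, and the median was 0.09. With the experiment as a block *NOXA1*, at -0.71 (edgeR adjusted p = 0.0036), and *MAOB*, at -0.71 (edgeR adjusted p = 0.0227), also fell, which made 3 lower in place of 1. Beside *CAT*, whose product is imported into peroxisomes, 15 genes of peroxisome import were tested, and 1 of 15 passed both thresholds at 30 µg/cm2, *PEX2*, which at a fall of 0.60 (SE 0.143, edgeR adjusted p = 0.0158) sat at the threshold of size. *PEX10*, named after its value was seen, passed at any size in the other direction, with 0.48 (SE 0.125, edgeR adjusted p = 0.0253). Under daily exposure, where *CAT* was lowest, 0 of these 15 passed by the edgeR test, with a median of 0.12. Beside *SOD2*, 6 of 8 NF-kappaB targets rose at 30 µg/cm2, with *IL1B* at 2.45 (SE 0.356, edgeR adjusted p = 0.000668) *CXCL8* at 2.13 (SE 0.383, edgeR adjusted p = 0.00298), *RELB* at 2.03 (SE 0.218, edgeR adjusted p = 7.4e-05) and *TNFAIP3* at 1.35 (SE 0.2, edgeR adjusted p = 0.000765). The most abundant of them per length, *NFKBIA*, was at 0.27 (SE 0.177, edgeR adjusted p = 0.394). The count was 0 of 8 at 1 µg/cm2 for 24 h or daily. With the block, *BIRC3* fell at 30 µg/cm2 by 0.61 (SE 0.156, edgeR adjusted p = 0.0111), and *IL1B* rose by 1.27 (SE 0.211, edgeR adjusted p = 0.0184) at 1 µg/cm2 for 24 h.

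**Figure D5:**
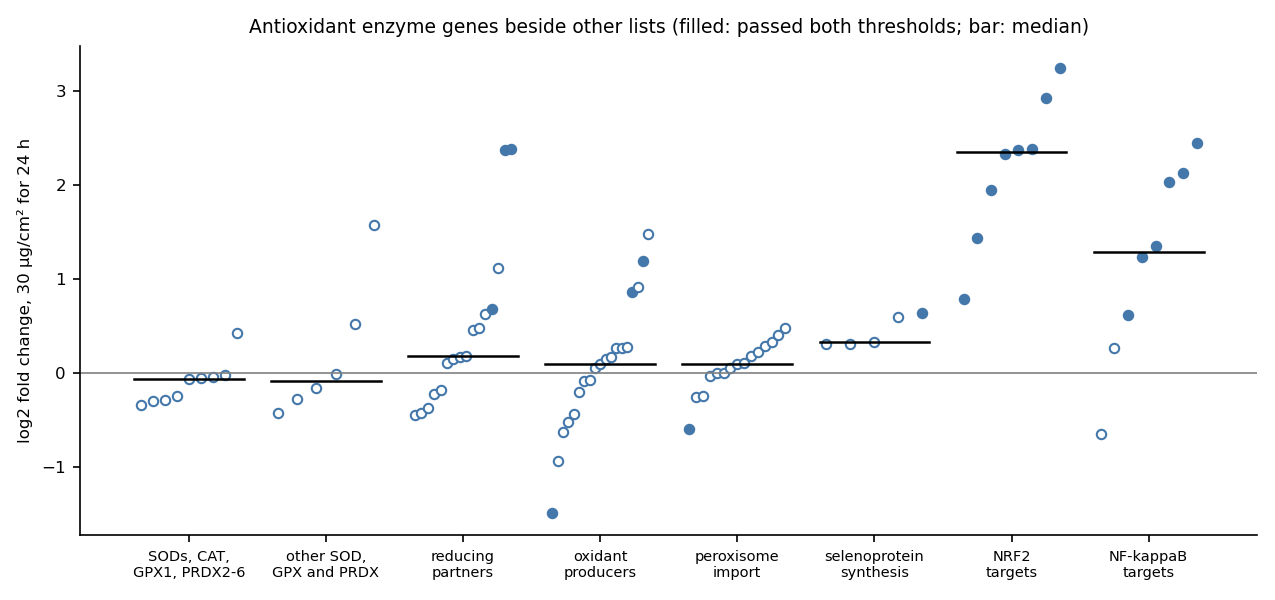
Log2 fold change (vertical axis) at 30 µg/cm2 for 24 h of the tested genes of each list, sorted within the list, with a bar at the median; filled symbols passed both thresholds in the edgeR test. The 9 antioxidant enzyme genes lie between -0.34 and 0.43 with none filled, and all 8 NRF2 targets are filled, with a median of 2.35.

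By Pearson's r of TMM-scaled log2 CPM over the 15 libraries, among 9970 other genes with a mean of at least 10 CPM, the patterns nearest to *SOD1* were those of *SH3BGRL3* and *GLA* (0.99 for both) and the nearest to *PRDX2* those of *TMSB10* and *AP2M1* (0.99 for both). For *GPX1* they were *METTL26* and *ELOB* (0.99), for *PRDX4* *MRPS7* and *PSMD13* (0.99), for *PRDX5* *SVBP* (0.99) and *CCHCR1* (0.98) and for *PRDX6* *LGMN* (0.99) and *ETFB* (0.98). *CAT* was nearest to *SUOX* and *ALDOC* (0.96) and *PRDX3* to *ANXA3* (0.91) and *RSU1* (0.90). *SOD2* had no near neighbour, with 0.71 for *COL1A2* and *CDK5RAP2*. These values describe the 15 libraries, which share 2 protocols and 24 h experiment 2, and carry no test.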

How the data were processed

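RNA-seq of 15 BEAS-2B libraries in 5 conditions was used. The authors deposited 1 table of unnormalized counts per gene, with exon lengths, made from poly-A selected single-end reads of 50 bases that were aligned with STAR 2.5.3 to GRCh38 and counted with featureCounts; the submitters' processing notes name hg19, but the table's coordinates are those of GRCh38. Annotation, strand and counting options are not given in the sources used here, and reads that fit several places or genes can shift the counts of overlapping genes. Genes were named from GENCODE v44 (57438 of 58219).

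The statistics were run with edgeR 4.0.16 (R 4.3.3): filterByExpr, TMM, and a quasi-likelihood fit (earlier mode) of a mean per condition over all 15 libraries, with Benjamini-Hochberg adjustment over 17599 genes. Genes were called at an adjusted p under 0.05, either with a log2 change of 0.6 or more in size or at any size. An SE is the log2 fold change over the root of its F statistic, and intervals are 95% intervals. Only this fit of a mean per condition was tested on simulated data first, for the high concentration against its control. The fits with a block, with DESeq2, with other scalings or filters and with libraries left out had no such test.

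Replicate numbers mark experimental batches by the series record, and deviations from group means correlated between same-numbered libraries at 0.201 to 0.721 (24 h, 9 pairs) and 0.121 to 0.181 (7 d, 3 pairs), so the comparisons inside 1 protocol were also fitted with a replicate block for the number. Libraries of a group differed beyond sampling noise (chi-square per degree of freedom of at least 4.32). Alternatives covered scaling, filters, DESeq2 1.42.0, edgeR's current mode, the libraries in the fit, and libraries left out. The genes named are the 9 enzymes in every comparison and, from each fixed list of other genes, those called (up to 4) and the most abundant. A gene that this rule names is not reported here. The genes, lists and alternatives were chosen with earlier results of these data known. Total counts of 21460981 to 34724765 put the floor of 3 counts at 0.0864 to 0.14 CPM; floors cover counting error only.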

Additional observations from a re-analysis of the deposited data

Results flagged for a closer look

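*PRDX3* was flagged because its response to 1 µg/cm2 went opposite ways in the protocols, lower than the control in 3 of 3 experiments at 24 h and higher in 3 of 3 under daily exposure. The difference of the log2 responses was 0.21 (SE 0.165, 95% interval -0.14 to 0.57, edgeR quasi-likelihood adjusted p = 0.855), with the replicate block 0.21 (edgeR adjusted p = 0.403) and with DESeq2 0.21 (DESeq2 adjusted p = 0.82), so the test of the difference itself was not passed by any of the 3.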

How the results depend on the processing

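The counts of the 9 enzyme genes called by edgeR were 0 in each particle comparison and moved with the handling of the 24 h experiments. With the replicate block, which uses the pairing by experiment, the counts at an adjusted p under 0.05 and any size were 3 at 30 µg/cm2, 1 under daily exposure and 3 between the concentrations, and 0 for 1 µg/cm2 at 24 h and for the difference of responses; no gene of the 9 passed both thresholds. DESeq2 called 1 gene at 30 µg/cm2 and 1 under daily exposure, and a fit of the groups compared alone called 6 under daily exposure. Without 24 h experiment 2 the counts were 7, 4 (between the concentrations), 3 (difference of responses, 2 of them with both thresholds) and 9 (between the controls, in place of 5). Leaving out 1 library at a time gave 0 to 2 genes at 30 µg/cm2, 0 to 1 between the concentrations and 3 to 5 between the controls. Scaling by RLE or the upper quartile, the filters and edgeR's current mode left every count of genes called at an adjusted p within 1.5 times its value, but without a filter the count at an unadjusted p under 0.05 was 1 in place of 3 at 30 µg/cm2 and 1 in place of 2 between the concentrations. In a fit of the groups compared alone, the count at an unadjusted p under 0.05 was 0 in both of these comparisons. Over all genes, the block raised the number called at any size from 1769 to 5215, from 11 to 83, from 44 to 2148, from 1785 to 5534 and from 0 to 208 for 30 µg/cm2, 1 µg/cm2, daily exposure, the difference of concentrations and that of responses.

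Log2 fold changes near 0 changed sign, and so did some larger ones. Among these was *PRDX5*, at -0.54 between the concentrations and 0.30 for 1 µg/cm2 at 24 h in the fit of all 15 libraries. At 1 µg/cm2 for 24 h *SOD1*, *SOD2* and *PRDX2* became 0.02 with the upper quartile and 0.01 with a filter of 1 CPM, and without experiment 2 *SOD2* became 0.03, *GPX1* -0.20 and *PRDX5* -0.02. *SOD1* became 0.01 under daily exposure with the upper quartile, and without a filter *SOD1* and *PRDX4* became 0.01 between the concentrations and *PRDX5* 0.01 between the controls. For the difference of responses *SOD1* became 0.02 and *PRDX5* 0.04 with the block, *SOD1* 0.01 without a filter, and without experiment 2 *SOD1* 0.12, *GPX1* 0.29, *PRDX5* 0.24 and *PRDX6* 0.00; *PRDX5* became 0.38 between the controls. Leaving out 1 library at a time gave, at 30 µg/cm2, -0.35 to 0.11 for *SOD1*, -0.45 to 0.12 for *GPX1*, -0.34 to 0.05 for *PRDX4*, -0.83 to 0.15 for *PRDX5* and -0.36 to 0.14 for *PRDX6*. At 1 µg/cm2 it gave -0.23 to 0.16 for *SOD1*, -0.09 to 0.08 for *SOD2*, -0.04 to 0.15 for *CAT*, -0.31 to 0.45 for *GPX1*, -0.32 to 0.16 for *PRDX2*, -0.30 to 0.10 for *PRDX4*, -0.43 to 0.72 for *PRDX5* and -0.43 to 0.10 for *PRDX6*. Daily exposure gave -0.06 to 0.00 for *SOD1*, and the controls -0.25 to 0.37 for *PRDX5*. Between the concentrations the ranges were -0.35 to 0.19 for *SOD1*, -0.67 to 0.26 for *GPX1*, -0.66 to 0.00 for *PRDX2*, -0.29 to 0.22 for *PRDX4*, -1.13 to 0.17 for *PRDX5* and -0.26 to 0.36 for *PRDX6*. For the difference of responses they were -0.17 to 0.21 for *SOD1*, -0.35 to 0.41 for *GPX1*, -0.40 to 0.07 for *PRDX2*, -0.50 to 0.66 for *PRDX5* and -0.31 to 0.21 for *PRDX6*. Beyond the libraries and scalings named here, the cause was not tested. With 3 libraries a group, changes within the printed intervals could not be seen.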
